A study of Mus musculus with 7 samples.

Results

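The genes of TREM2 and TYROBP signalling described here were *Trem2*, *Tyrobp*, *Hcst*, *Syk*, *Plcg2*, *Inpp5d* and *Treml2*, which are 7 of the 40743 genes listed in the deposited table. They were picked by gene symbol, with earlier results of these data known. Their transcripts were measured by RNA sequencing in retinal microglia (rMG), the resident myeloid cells of the neuroretina, sorted from 3 pools of unlasered and 4 pools of lasered mice labelled *Irf8* KO. All mice carried the genotype Irf8-/- and 1 GFP-disrupted allele of *Cx3cr1* (Cx3cr1GFP/+), were adult and were bred on a C57BL/6J background without the Crb1 mutation. The lasered mice had received laser burns, a model of choroidal neovascularisation (CNV), and their rMG were taken after 7 days. The sort gate was CD45low CD11b+ Cx3cr1GFP/+ Ly6C- Ly6G-, and each library held about 10000 cells from 3 to 4 mice. Each library is therefore a pool, and the spread between libraries is a spread between pools. The peripheral retina was discarded in the lasered group alone, which left the central 70%, so an effect of laser and an effect of retinal region cannot be told apart. Wild-type libraries were not analysed here.

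TREM2 is a lipid-sensing receptor on the surface of microglia that lacks a signalling tail of its own. It relies on TYROBP (DAP12), a small transmembrane adaptor whose immunoreceptor tyrosine-based activation motif (ITAM) recruits the kinase SYK once Src family kinases have phosphorylated it, and a share of its signal passes through HCST (DAP10), an adaptor that binds PI3-kinase. PLCG2, a phospholipase that makes calcium-releasing messengers, acts below SYK, and the phosphatase INPP5D (SHIP1) opposes PI3-kinase. TREML2 is a related receptor known from B cells, neutrophils and macrophages. In the brain, this pathway is known for its part in lipid uptake and in the change of microglia to a disease-associated state, and several of its human genes carry risk variants for Alzheimer disease.

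The adaptors are shown by the coding sequence of the motif through which each passes on the signal, with the tyrosine codons in capitals. The *Tyrobp* stretch codes for codons 92 to 106 and joins 2 exons at chr7:30415670-30417382 (GRCm38, plus strand), and the *Hcst* stretch codes for codons 72 to 75 at chr7:30417821-30417832 (minus strand). Both were read from GENCODE M21 transcripts.
Tyrobp: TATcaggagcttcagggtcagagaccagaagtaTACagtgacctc
Hcst: TACatcaacatg
The TREM receptor genes and the adaptor genes of this set each form a pair of neighbours in the genome. *Tyrobp* (ENSMUSG00000030579, chr7:30413760-30417585, plus strand) and *Hcst* (ENSMUSG00000064109, chr7:30417712-30419854, minus strand) lie 126 bases apart with their 3′ ends facing each other. *Treml2* (ENSMUSG00000071068, chr17:48299498-48312533) and *Trem2* (ENSMUSG00000023992, chr17:48346401-48354147) lie 33867 bases apart on the plus strand. The other members are *Syk* (ENSMUSG00000021457, chr13:52583173-52648792), *Plcg2* (ENSMUSG00000034330, chr8:117498291-117635142) and *Inpp5d* (ENSMUSG00000026288, chr1:87620312-87720507), each on the plus strand. The 7 members were each listed under their own identifier, without reads that the counting shared between overlapping genes.

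The unlasered libraries held 20427558 to 36022954 reads and the lasered libraries 37133297 to 45919042 reads. The values are CPM, that is reads relative to the total of the library, and 3 reads, the floor used here, corresponded to between 0.0653 and 0.147 CPM. *Irf8*, the targeted gene, was listed at between 489 and 530 CPM in unlasered and between 463 and 582 CPM in lasered libraries, in an entry that takes in reads shared with *Gm20388*. A count over the whole gene does not show whether the disrupted part was transcribed, so it does not check the genotype and the libraries are named by their label. Microglia markers summed to between 22628 and 26931 CPM in unlasered and between 20862 and 27695 CPM in lasered libraries, and 0 of 9 tested markers were called. Rod photoreceptor markers had sums of 2201, 19896 and 5675 CPM in unlasered libraries 1, 2 and 3, whereas the lasered sums ranged from 318 to 991 CPM, with 13 of 14 called lower. The part of rod transcripts in the differences below was not tested. A refit with library totals that left the rod list out changes only the scaling of each library, so it cannot show that part. In this refit the number of members called stayed at 1, with 3.65% of all genes called higher. In pooled RNA, fewer cells of a type and less RNA per cell cannot be told apart.

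*Tyrobp* was by far the most abundant member, and it ranked among the highest of all genes in these rMG. Levels of different genes were compared as CPM per kilobase of exonic length. On this scale *Tyrobp* reached 1931 ± 292 (SD, n = 3) in unlasered and 2222 ± 158 (SD, n = 4) in lasered libraries, which placed it at rank 14 and rank 12 of 40613 genes. *Trem2* followed with 181 ± 33.4 and 195 ± 19.2 CPM per kilobase, and *Inpp5d* with 88.9 ± 33.2 and 104 ± 10.3. *Hcst* stood at 44.2 ± 5.27 and 45.4 ± 3.00, *Plcg2* at 41.6 ± 18.2 and 58.0 ± 3.43, and *Syk* at 17.2 ± 6.5 and 17.3 ± 1.97. *Treml2* was the lowest member with 0.842 ± 0.279 and 4.47 ± 1.58 CPM per kilobase. With this length, each step in the order separated the libraries of a group without overlap, apart from *Hcst* and *Plcg2* in unlasered libraries, and *Plcg2* lay above *Hcst* in every lasered library.

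Parts of this order depend on the transcript taken as the length of a gene. A retained-intron transcript brings the exonic length to 4946 bases, whereas the longest protein-coding transcript has 1088 bases. With the latter, *Trem2* stood at 823 ± 152 CPM per kilobase in unlasered and 887 ± 87.4 in lasered libraries. It then ranked 43 and 42 of 20778 genes, and *Tyrobp* exceeded it 2.62-fold and 2.80-fold in place of 10.7-fold and 11.4-fold. The order of *Hcst* and *Plcg2* turned with the longest protein-coding or the longest transcript, where *Hcst* stood above *Plcg2* without overlap, 1.74-fold in unlasered and 1.28-fold in lasered libraries. *Plcg2* and *Syk* then overlapped in unlasered libraries. With the longest transcript, *Trem2* and *Inpp5d* overlapped in both groups.

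**Figure D1:**
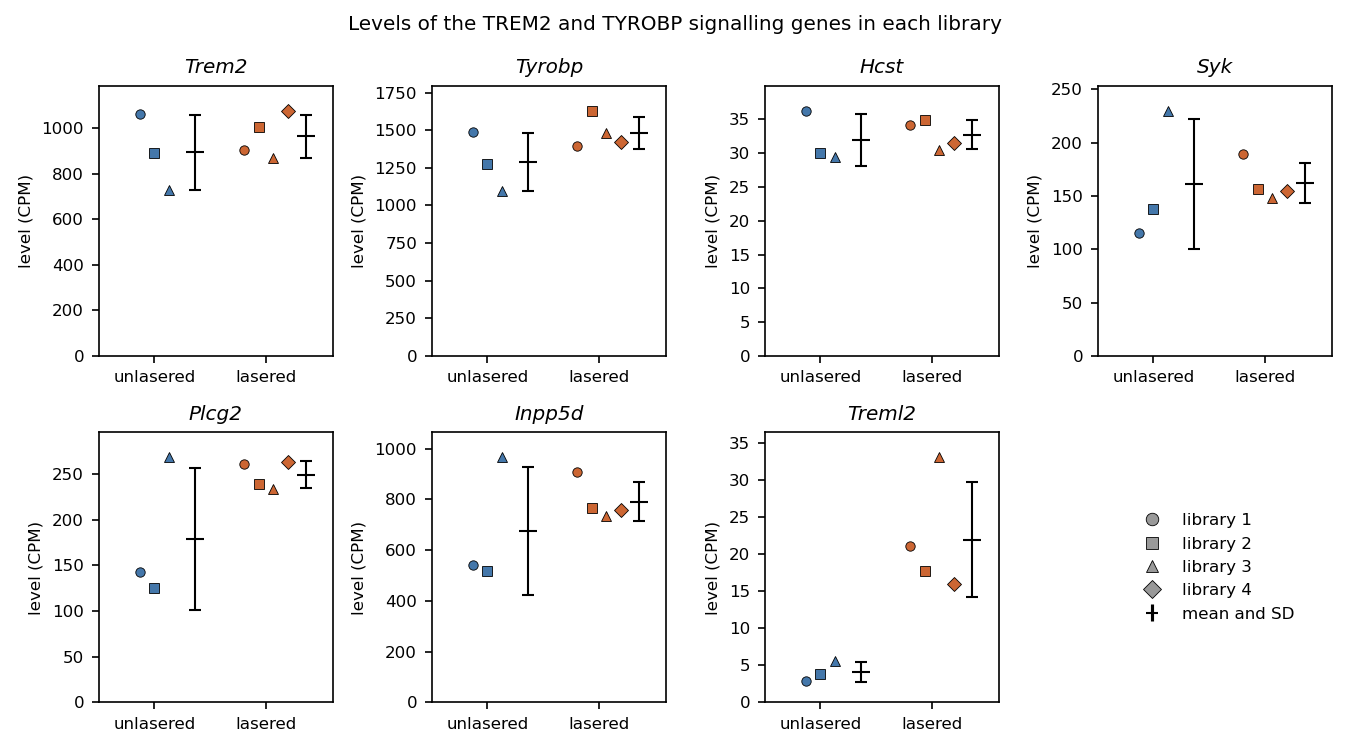
Level of each member in CPM (vertical axes starting at 0) in the 3 unlasered (blue) and 4 lasered (orange) libraries, with symbols for the library number and black bars for mean and SD. *Treml2* alone separates the groups, with 2.94 to 5.64 CPM in unlasered and 16.0 to 33.2 CPM in lasered libraries, and unlasered library 3 is the highest library for *Syk*, *Plcg2* and *Inpp5d*.

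To determine how these genes differed 7 days after laser injury, lasered and unlasered libraries were compared in a limma fit over 17496 genes. Of these, 676 genes were called higher and 537 lower after laser (Benjamini-Hochberg adjusted p under 0.05), which is 3.86% and 3.07% of the genes tested and 6.93% in either direction. The call on the 7 members was 1 higher, *Treml2*, and 0 lower. The core of the pathway, *Trem2*, *Tyrobp*, *Hcst* and *Syk*, differed by at most 0.21 on the log2 scale in the fit of all 7 libraries, and none of them was called. This limit was 0.35 (*Syk*) without unlasered library 3, 0.32 (*Tyrobp*) without unlasered library 1 and 0.33 (*Tyrobp*) after TMM scaling, with none of the 4 called. Fold changes are on the log2(CPM + 1) scale, which understates the change of genes with low values. Those from edgeR, DESeq2, voom and the pseudocount of 0.1 CPM are not on this scale.

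*Trem2* was measured at 1061, 893 and 731 CPM in unlasered libraries 1, 2 and 3 and at 905, 1005, 870 and 1079 CPM in lasered libraries 1 to 4. The groups overlapped, with the highest library among the lasered and the lowest among the unlasered. The log2 fold change was 0.12 ± 0.15 (SE), with a 95% confidence interval from -0.21 to 0.45 (limma adjusted p = 0.686). Without unlasered library 3 it was -0.02, so no direction can be given.

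*Tyrobp*, the adaptor of TREM2, stood at 1488, 1277 and 1099 CPM in unlasered and at 1394, 1631, 1480 and 1423 CPM in lasered libraries. Unlasered library 1 lay within the lasered range, and the other unlasered libraries lay below it. The log2 fold change was 0.21 ± 0.13 (95% confidence interval -0.07 to 0.50, limma adjusted p = 0.366) and was positive in 17 of 17 alternative analyses, from 0.10 to 0.33, without being called in any.

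*Hcst*, the second adaptor, was much lower, with 36.3, 30.1 and 29.5 CPM in unlasered and 34.2, 35, 30.4 and 31.5 CPM in lasered libraries. The lasered values all lay inside the unlasered range. The log2 fold change of 0.04 ± 0.14 had a 95% confidence interval from -0.28 to 0.36 (limma adjusted p = 0.904), which leaves room for a change of either sign.

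*Syk*, the kinase recruited by the ITAM, varied more among the unlasered libraries than between the groups. It reached 115, 137 and 230 CPM in unlasered libraries 1, 2 and 3 and 189, 157, 148 and 155 CPM in lasered libraries. All lasered values fell between unlasered library 2 and unlasered library 3. A log2 fold change of 0.07 ± 0.22 was estimated (95% confidence interval -0.43 to 0.56, limma adjusted p = 0.893), and its sign turned when unlasered library 1 (-0.14), unlasered library 2 (-0.01) or lasered library 1 (-0.01) was left out.

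*Plcg2*, the phospholipase below SYK, stood at 142, 125 and 268 CPM in unlasered and at 260, 239, 234 and 263 CPM in lasered libraries. The lasered libraries were all close to each other and above unlasered libraries 1 and 2, but unlasered library 3 exceeded each of them. On the log2 scale the difference was 0.56 ± 0.23 (95% confidence interval 0.03 to 1.09). Its unadjusted p of 0.0400, from a fit in which 22.7% of all genes had an unadjusted p under 0.05, became an adjusted p of 0.196 in limma.

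*Inpp5d*, the inhibitory phosphatase, was likewise highest in an unlasered library. It was measured at 541, 518 and 967 CPM in unlasered and at 907, 767, 733 and 757 CPM in lasered libraries. Unlasered library 3 was the highest of the 7 and the other unlasered libraries the lowest. This gave a log2 fold change of 0.28 ± 0.21 (95% confidence interval -0.19 to 0.76, limma adjusted p = 0.472).

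The result for the latter pair rests on unlasered library 3. Without it, the log2 fold change was 0.89 for *Plcg2* (limma adjusted p = 0.0122) and 0.57 for *Inpp5d* (limma adjusted p = 0.0315), so that 3 members in place of 1 were called higher, with 4.77% of all genes called higher in that fit. *Syk* reached 0.35 without this library and was not called (limma adjusted p = 0.140).

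**Figure D2:**
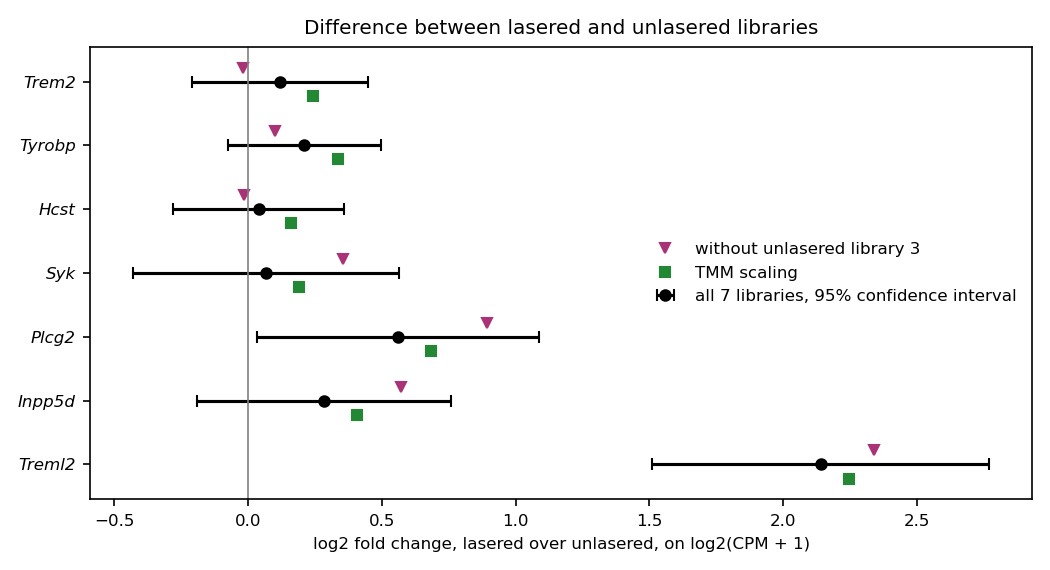
Log2 fold change of each member, lasered over unlasered, on the log2(CPM + 1) scale (horizontal axis). Black points with bars give the fit of all 7 libraries with its 95% confidence interval, purple triangles the fit without unlasered library 3 and green squares the fit after TMM scaling. *Treml2* lies at 2.14, and the intervals of *Trem2*, *Tyrobp*, *Hcst*, *Syk* and *Inpp5d* include 0.

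Unlasered library 3 differed from the other libraries in a manner that followed gene length. Tested genes were divided into 5 bins by exonic length, and the deviation of each library from its group mean was taken on the log2 scale. In unlasered library 3 the median deviation was -0.17 in the bin of the shortest genes, -0.12, -0.02 and 0.09 in the next ones and 0.21 in that of the longest genes. The deviations of a group sum to 0 for each gene, so those of the other unlasered libraries are not independent of it. Lasered libraries stayed between -0.10 and 0.10.

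The members of this pathway have very different lengths, and in unlasered library 3 their deviations followed the medians of their bins only in part. The long genes *Syk* and *Inpp5d* lay 0.58 and 0.58 above their group mean, more than the median of their bin. *Plcg2*, of middle length, lay 0.67 above, against a bin median of -0.02. *Treml2*, in bin 4, lay 0.40 above, against a bin median of 0.09. The short genes *Tyrobp* and *Hcst* lay 0.22 and 0.11 below. *Trem2*, in bin 4 by exonic length, lay 0.27 below, against a median of 0.09 above in its bin. *Trem2* falls in this bin through its retained-intron transcript. Its longest protein-coding transcript has 1088 bases. The bins were cut on exonic length for every gene, so that length alone cannot be placed in them. The removal of the trend given next also took the exonic length as the length of *Trem2*. With the trend with length removed from each library, an analysis added after the data were seen, the log2 fold changes were 0.61 for *Plcg2* (limma adjusted p = 0.136) and 0.31 for *Inpp5d* (limma adjusted p = 0.236), and that of *Hcst* became -0.04, with 4.03% of all genes called higher. What produced the course with length was not tested.

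**Figure D3:**
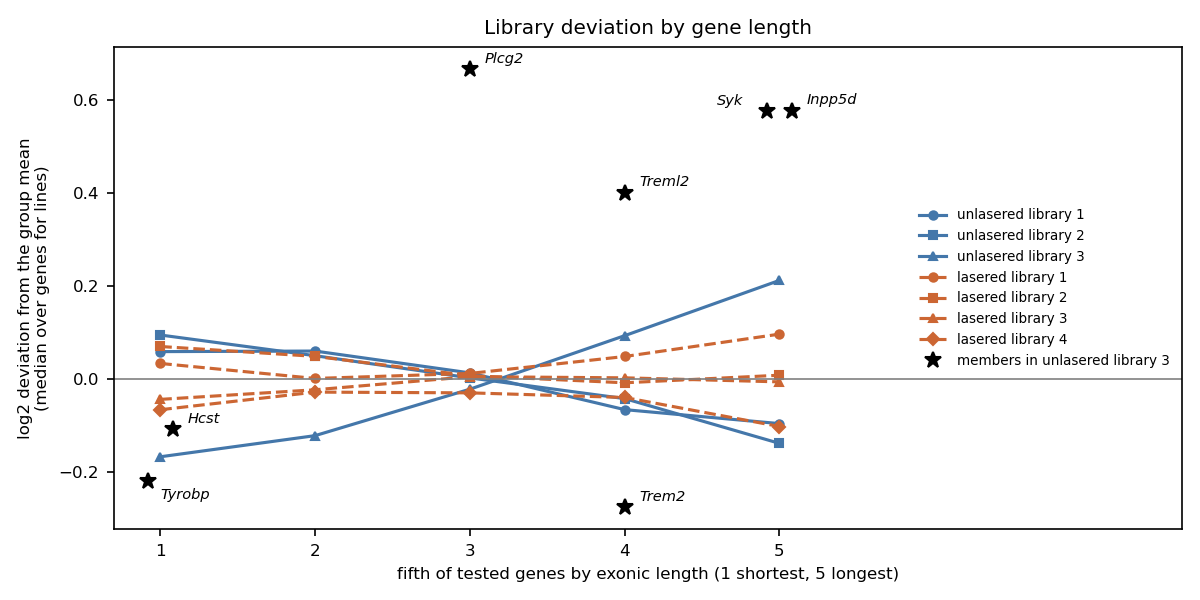
Median log2 deviation of each library from its group mean (vertical axis) for bins of the tested genes by exonic length (horizontal axis, 1 shortest, 5 longest), with lines for the unlasered (blue) and lasered (orange, dashed) libraries. Stars give the 7 members in unlasered library 3, where the line rises from -0.17 to 0.21 and *Plcg2*, *Syk* and *Inpp5d* lie at 0.67, 0.58 and 0.58.

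*Treml2* was the member that rose after laser injury. It was measured at 2.94, 3.85 and 5.64 CPM in unlasered and at 21.1, 17.7, 33.2 and 16.0 CPM in lasered libraries, which is 60, 132 and 203 reads against 931, 796, 1523 and 593 reads. The lowest lasered library stood well above the highest unlasered library. For comparison, 10.4% of all tested genes had every lasered value above every unlasered value. Mean levels were 4.14 ± 1.37 CPM (SD, n = 3) and 22.0 ± 7.75 CPM (SD, n = 4), a ratio of 5.31. The log2 fold change was 2.14 ± 0.28 (95% confidence interval 1.51 to 2.77, limma adjusted p = 0.00742). Of the 676 genes called higher, 18 had a log2 fold change at least as large, *Treml2* itself included.

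The rise of *Treml2* was called whichever library was left out, with log2 fold changes from 1.93 to 2.34 and limma adjusted p from 0.0122 to 0.0271. On the whole reads recovered from the CPM values, edgeR gave 2.41 (adjusted p = 0.00880), DESeq2 gave 2.41 (adjusted p = 4.14e-11) and voom gave 2.36 (adjusted p = 0.0120). These tools called 3.78%, 6.73% and 3.22% of all genes higher.

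Since *Treml2* is also known from other leukocytes, markers of these cells are given beside it. Of the B cell list, 0 of 2 tested markers were called in either direction, against 6.93% of all genes tested. They went in opposite directions. *Cd79a* had a log2 fold change of -1.17 (limma adjusted p = 0.131) with overlap between the groups. *Cd79b* had 0.60 (limma adjusted p = 0.247), with every lasered above every unlasered value, as in 10.4% of all genes tested. The neutrophil list summed to between 0.380 and 11.1 CPM in unlasered and between 1.35 and 13.2 CPM in lasered libraries, and *Retnlg*, *Ly6g* and *Ngp* were at or under 3 reads in all 7. *Cxcr2*, a chemokine receptor of neutrophils and the neutrophil marker called higher, stood at 0.147, 0.0292 and 0.0555 CPM in unlasered libraries, at or under 3 reads in each, and at 5.48, 5.03, 12.9 and 1.05 CPM in lasered libraries. *S100a8*, the other neutrophil marker tested, stood at 7.20, 0.0876 and 0.888 CPM in unlasered and at 1.74, 6.86, 0.283 and 0.269 CPM in lasered libraries (log2 fold change -0.07 ± 0.78, limma adjusted p = 0.968). *S100a9* was at no more than 3.48 CPM, highest in unlasered library 1. Within the lasered group, *Cxcr2* had the same order of libraries as *Treml2*, highest in library 3, followed by libraries 1, 2 and 4. *S100a8* and *S100a9* were highest in library 2. The part of such cells in the result was not tested.

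Monocyte and dendritic cell sums had another order of lasered libraries than *Treml2*, apart from lasered library 4, which was lowest for each. The monocyte sum ranged from 44.9 to 105 CPM without laser and was 196, 230, 65.7 and 27.3 CPM in lasered libraries 1 to 4. The dendritic cell sum ranged from 18.3 to 40.8 CPM without laser and was 126, 132, 34.1 and 31.0 CPM in lasered libraries 1 to 4. *Treml2* was highest in lasered library 3, in which both sums lay within the unlasered range. In that library *Ccr2* (19.7 CPM), *Ccr7* (5.34 CPM) and *Cd209a* (2.87 CPM) exceeded every unlasered library, and the other markers of both lists did not. *Treml2* was lower in lasered libraries 1 and 2, in which both sums exceeded the unlasered range. The part of monocytes and dendritic cells in the level of *Treml2* was not tested.

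Ratios of members within a library do not depend on the scaling of that library. For each of 6 ratios the groups were compared with a two-sided exact permutation test, whose smallest possible p with 3 against 4 libraries is 0.0571, so that none could pass 0.05. *Trem2* reads were 0.665 to 0.713 of *Tyrobp* reads in unlasered and 0.588 to 0.758 in lasered libraries, a log2 difference of -0.09 (exact permutation p = 0.4, adjusted over the 6 ratios 0.4). *Hcst* reads were 0.0235 to 0.0268 of *Tyrobp* reads in unlasered and 0.0206 to 0.0245 in lasered libraries (log2 difference -0.17, exact permutation p = 0.171, adjusted 0.206). Both ratios overlapped between the groups.

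The other 4 ratios were higher in each lasered than in each unlasered library, which gives the smallest p (exact permutation p = 0.0571, adjusted 0.0857 for each). The share of other gene pairs that separate the groups was not computed. By level alone, 21% of all tested genes did so in either direction. *Treml2* to *Trem2* differed by 2.28 on the log2 scale. *Plcg2* reads were 0.913 to 1.23 times *Syk* reads in unlasered and 1.38 to 1.70 times in lasered libraries, a log2 difference of 0.49. *Inpp5d* reads were 3.77 to 4.69 times *Syk* reads in unlasered and 4.80 to 4.97 times in lasered libraries, a log2 difference of 0.22. Unlasered library 3, the outermost library for the levels of *Plcg2*, *Syk* and *Inpp5d*, lay between the other unlasered libraries in both ratios to *Syk*. *Tyrobp* reads were 0.724 to 0.773 of those of *Fcer1g*, the gene of the alternative ITAM adaptor FcR gamma, in unlasered and 0.864 to 0.991 in lasered libraries, a log2 difference of 0.26.

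**Figure D4:**
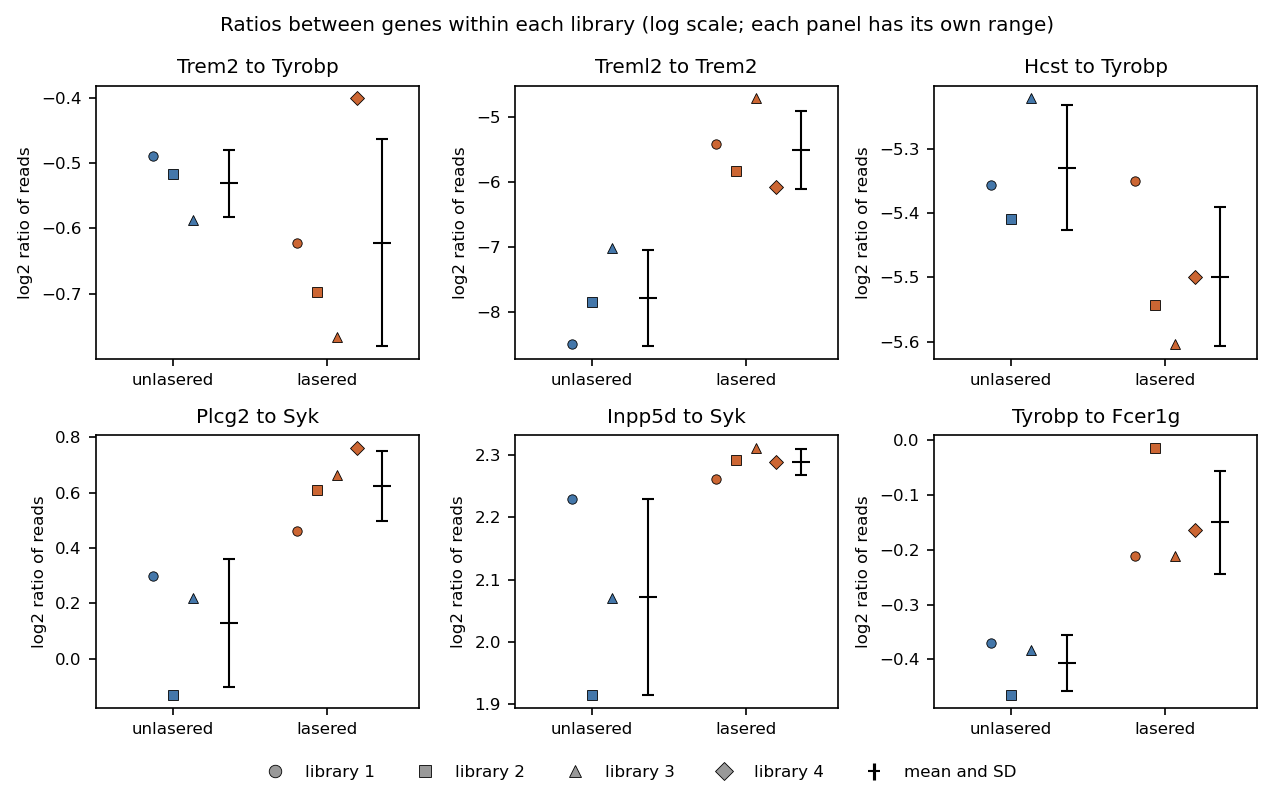
Log2 ratio of reads (vertical axes, each with its own range) between pairs of genes within each unlasered (blue) and lasered (orange) library, with symbols for the library number and black bars for mean and SD. *Trem2* to *Tyrobp* and *Hcst* to *Tyrobp* overlap between the groups, and the other 4 ratios are higher in all 4 lasered than in all 3 unlasered libraries.

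Across the 7 libraries the downstream genes varied together. Pearson's r of log2 levels was 0.94 between *Plcg2* and *Inpp5d*, 0.90 between *Syk* and *Inpp5d* and 0.74 between *Syk* and *Plcg2*. *Trem2* and *Tyrobp* had an r of 0.78, whereas *Trem2* and *Syk* had an r of -0.72. These values describe 7 libraries that share their scaling and, in unlasered library 3, the course with gene length. Among 10287 genes with a mean of at least 10 CPM, those most like *Trem2* over the 7 libraries were *C1qa* (r = 0.993), which encodes a chain of complement C1q, *Ergic3* (0.982), *Mrpl36* (0.982), *Gm11675* (0.971), a processed pseudogene, and *Aup1* (0.970). Those most like *Tyrobp* were *Gabrb1* (0.984), *Mrps23* (0.984), *Siva1* (0.984), *Cst7* (0.982), which encodes cystatin F, and *Gm20503* (0.979).

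Promoters are shown for the receptor gene and for the pair of downstream genes with the highest correlation, because IRF8 binds DNA with PU.1 at composite sites. The windows run from 250 bases before to 50 bases after the start site and come from RefSeq (GRCm38.p6), which gave a promoter for 5 of the 7 members. They lie at chr17:48346151-48346450 for *Trem2*, chr8:117498025-117498324 for *Plcg2* and chr1:87620062-87620361 for *Inpp5d*, all on the plus strand. Capitals mark the PU.1 core GGAAGT.
Trem2: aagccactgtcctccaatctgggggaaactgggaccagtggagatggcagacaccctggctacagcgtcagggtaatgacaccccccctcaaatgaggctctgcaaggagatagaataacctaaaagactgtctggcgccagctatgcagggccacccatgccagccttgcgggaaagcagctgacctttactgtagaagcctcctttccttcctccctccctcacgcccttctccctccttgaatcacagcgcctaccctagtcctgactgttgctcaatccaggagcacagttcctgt
Plcg2: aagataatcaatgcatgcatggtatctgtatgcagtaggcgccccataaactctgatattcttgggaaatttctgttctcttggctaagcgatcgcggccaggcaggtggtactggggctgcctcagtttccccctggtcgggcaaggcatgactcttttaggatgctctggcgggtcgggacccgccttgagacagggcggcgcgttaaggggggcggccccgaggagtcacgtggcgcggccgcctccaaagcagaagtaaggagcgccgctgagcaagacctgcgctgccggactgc
Inpp5d: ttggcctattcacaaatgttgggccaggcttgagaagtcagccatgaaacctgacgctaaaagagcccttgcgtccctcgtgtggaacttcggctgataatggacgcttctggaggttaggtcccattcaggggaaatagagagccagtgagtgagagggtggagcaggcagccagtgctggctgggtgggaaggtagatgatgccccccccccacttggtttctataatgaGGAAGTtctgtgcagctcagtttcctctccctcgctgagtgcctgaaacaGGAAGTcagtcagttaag
GGAAGT was searched on both strands and occurred 2 times in the *Inpp5d* window, 2 times in that of *Hcst* and not in those of *Trem2* and *Plcg2*. Of the 2 *Syk* windows, 1 held a single match. Among all 32851 promoters of this length, 23.8% held at least 1 match and 4.18% held 2 or more. The composite ETS-IRF motif, GGAA followed by any 2 bases and GAAA, found in 2.72% of all promoters, and the IRF motif, GAAA followed by any 2 bases and GAAA, found in 3.44%, had 0 matches in the windows of the members. A match is a match of letters only, and its absence says nothing on binding elsewhere.

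To place the 7 members among the other genes of the pathway, 8 lists with 120 genes were examined, of which 119 were listed and 115 tested. After laser, 8 of the 115 were called higher (6.96%, against 3.86% of all genes) and 0 lower, 86 had a positive log2 fold change, and the median was 0.15 against -0.01 over all genes tested. In 23 of the 115 genes the groups did not overlap, against 21% of all genes tested. The number called higher was 14 after TMM scaling, 13 after median-of-ratios scaling and 15 with DESeq2, settings that called 5.97%, 5.34% and 6.73% of all genes higher. It was 5 without unlasered library 1 or unlasered library 2, 3 without lasered library 1 and 2 without lasered library 2 or lasered library 3, where 2.15%, 2.11%, 1.14%, 0.872% and 1.61% of all genes were called higher. Without a filter on low values it was 2, with 0.55% of all genes called higher. TMM scaling moved the median of all genes from -0.01 to 0.10 and the split of all calls from 676 higher and 537 lower to 1045 higher and 472 lower.

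**Figure D5:**
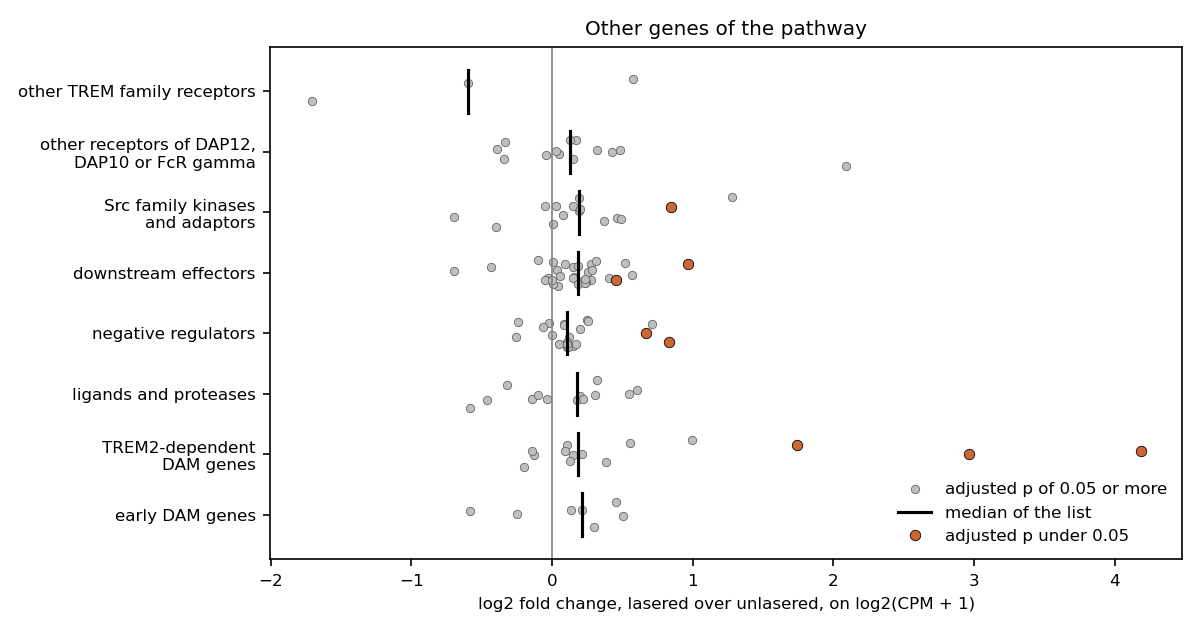
Log2 fold change, lasered over unlasered, on the log2(CPM + 1) scale (horizontal axis) for the tested genes of 8 pathway lists (rows), with orange points for genes called in the fit of all genes, grey points for the others and black lines for the median of each list. The 8 points called are all higher after laser, and *Spp1* (4.18) and *Lpl* (2.96) lie farthest to the right.

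Among the other receptors of the family, *Trem1*, an amplifier of inflammatory responses that also uses TYROBP, had 43.7, 47.6 and 46.9 CPM in unlasered and 69.0, 81.3, 74.4 and 54.7 CPM in lasered libraries. The groups did not overlap, and the log2 fold change was 0.58 ± 0.16 (limma adjusted p = 0.0606). It was called in 6 of 17 alternative analyses, among them TMM scaling (0.70, adjusted p = 0.0268) and the fit without lasered library 4 (0.69, adjusted p = 0.0370). *Treml4* ranged from 24.1 to 87.9 CPM in unlasered and from 8.04 to 32.2 CPM in lasered libraries, which overlapped (log2 fold change -1.71 ± 0.59, limma adjusted p = 0.124). In total, 0 of 3 tested receptors of this list were called.

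The list of receptors that pair with DAP12, DAP10 or FcR gamma also holds *Fcer1g*, the gene of the adaptor FcR gamma itself. Of its 13 tested genes, 0 were called, with a median log2 fold change of 0.12. In 5 of 17 alternative analyses 1 gene of this list was called, namely with a pseudocount of 0.1 CPM, after TMM scaling, with edgeR, with DESeq2 and without lasered library 4. The largest difference was that of *Cd209a*, a lectin of dendritic cells, which stood at 0.0979, 0 and 0.0833 CPM in unlasered and at 7.61, 8.93, 2.87 and 0.242 CPM in lasered libraries (limma adjusted p = 0.0825). Its unlasered values were at or under 3 reads. The adaptor gene *Fcer1g*, the gene of the list with the highest CPM, stood at 1707 ± 251 CPM (SD, n = 3) in unlasered and 1642 ± 51.8 CPM (SD, n = 4) in lasered libraries. *Siglech*, a microglial lectin that needs DAP12, had 831 ± 87.8 and 643 ± 143 CPM (log2 fold change -0.39 ± 0.17, limma adjusted p = 0.219).

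Of 15 tested Src family kinases and proximal adaptors, 1 was called higher (6.67%, against 3.86% of all genes). The number was 3 after TMM or median-of-ratios scaling and with DESeq2, where 5.97%, 5.34% and 6.73% of all genes were called higher. It was 4 without unlasered library 3 (4.77% of all genes) and 0 without lasered library 2 or lasered library 3 (0.872% and 1.61% of all genes). The largest log2 fold change of the list was that of *Src* (1.28 ± 0.33, limma adjusted p = 0.0520), with 4.94, 12.6 and 16.5 CPM in unlasered and 30, 23, 23.5 and 29.4 CPM in lasered libraries, which did not overlap. *Lat2*, an adaptor in the membrane that links ITAM receptors to their effectors, had 37.7, 30.3 and 28.3 CPM in unlasered and 49.7, 60.2, 58.7 and 65.1 CPM in lasered libraries. Every lasered library exceeded every unlasered library, and the log2 fold change was 0.85 ± 0.16 (limma adjusted p = 0.0178). The adjusted p was 0.0619 without lasered library 2 and 0.0543 without lasered library 3. *Lyn*, the most abundant kinase of the list, had 790 ± 89.9 and 872 ± 54.8 CPM and was not called. *Pik3ap1*, an adaptor that brings PI3-kinase to the membrane, was not called either (274 ± 100.2 and 371 ± 27.5 CPM, log2 fold change 0.49) but was without unlasered library 3 (0.77, limma adjusted p = 0.0151), as were *Plcg2* and *Inpp5d*.

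Of 32 downstream effectors, 2 were called higher (6.25%, against 3.86% of all genes). *Rac2*, a GTPase of haematopoietic cells that drives the cytoskeleton and the NADPH oxidase, stood at 239, 228 and 267 CPM in unlasered and at 489, 474, 499 and 448 CPM in lasered libraries. The groups lay far apart, with a log2 fold change of 0.97 ± 0.11 (limma adjusted p = 0.00461), and the call was kept whichever library was left out. Its widely expressed relative *Rac1* had 657 ± 29.7 and 685 ± 20.0 CPM (log2 fold change 0.06 ± 0.10, limma adjusted p = 0.765). *Mapk3*, which encodes ERK1, rose from 109 ± 10.9 to 150 ± 4.5 CPM (log2 fold change 0.45 ± 0.12, limma adjusted p = 0.0497), a call that was lost whichever library was left out. *Vav1*, a guanine nucleotide exchange factor below SYK, had 483 ± 75.4 and 511 ± 23.9 CPM and was not called.

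Of 21 negative regulators, 2 were called higher (9.52%, against 3.86% of all genes). *Sla*, an adaptor that dampens receptor signalling, had 125, 91.9 and 141 CPM in unlasered and 219, 228, 206 and 186 CPM in lasered libraries (log2 fold change 0.83 ± 0.16, limma adjusted p = 0.0216). The call was lost without lasered library 1, 2 or 3, with adjusted p of 0.0643, 0.0675 and 0.0592. *Siglece*, an inhibitory lectin, had 249, 195 and 235 CPM in unlasered and 350, 311, 440 and 342 CPM in lasered libraries (log2 fold change 0.67 ± 0.15, limma adjusted p = 0.0337), and its call was kept in 1 of 7 fits that left out a library, that without unlasered library 3. *Sirpa* (1681 ± 395 and 1755 ± 158 CPM) and *Ptprc* (505 ± 139 and 531 ± 57.5 CPM), which encodes the phosphatase CD45, were not called.

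Among ligands of TREM2 and the proteases that shed or cut it, 0 of 13 tested genes were called. *Apoe*, an apolipoprotein ligand of TREM2, had 76428, 74700 and 51588 CPM in unlasered and 29049, 40099, 46438 and 72350 CPM in lasered libraries. The groups overlapped, with lasered library 4 inside the unlasered range (log2 fold change -0.58 ± 0.28, limma adjusted p = 0.25). *Adam10*, a sheddase of TREM2, had 361 ± 86.3 and 402 ± 31.9 CPM and was not called.

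Genes that mark disease-associated microglia and depend on TREM2 in the brain held the largest log2 fold changes of the 8 lists. Of 14 tested genes 3 were called higher, against 3.86% of all genes, and the median log2 fold change of the list was 0.18. With 1 library left out, between 1 and 2 genes of the list were called. *Spp1*, which encodes the secreted phosphoprotein osteopontin, had 44.9, 49.2 and 62.7 CPM in unlasered and 1421, 874, 1385 and 487 CPM in lasered libraries, and its log2 fold change was 4.18 ± 0.34 (limma adjusted p = 0.00150). The call held in 17 of 17 alternative analyses. *Lpl*, the lipoprotein lipase, had 31.4, 1.69 and 10.3 CPM in unlasered and 80.1, 76.7, 86.2 and 65.4 CPM in lasered libraries (log2 fold change 2.96 ± 0.66, limma adjusted p = 0.0334). It was called when unlasered library 1 or unlasered library 2 was left out. The call was lost without unlasered library 3 (adjusted p = 0.0583) and without any of the lasered libraries, with adjusted p up to 0.0852.

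*Axl*, a receptor tyrosine kinase for apoptotic cells, had 34.1, 41.4 and 55.0 CPM in unlasered and 240, 260, 104 and 68.0 CPM in lasered libraries (log2 fold change 1.74 ± 0.44, limma adjusted p = 0.0478). Within the lasered group it was highest in libraries 1 and 2, the libraries with the highest monocyte and dendritic cell sums given above, and their part in this value was not tested. The call was kept in 1 of 7 fits that left out a library, that without lasered library 4. *Ctsl* had 881 ± 140 and 1296 ± 212 CPM without overlap (log2 fold change 0.55 ± 0.16, limma adjusted p = 0.0711), and *Cd9* 1593 ± 368 and 1449 ± 245 CPM.

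Of 7 early disease-associated genes that are induced without TREM2 in the brain, 0 were called, and the median log2 fold change was 0.22. *Ctsb*, which encodes the protease cathepsin B, had 4504 ± 281 and 4960 ± 330 CPM (log2 fold change 0.14 ± 0.10, limma adjusted p = 0.464). Whether these lists differ from each other in their response was not tested.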

How the data were processed

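The rMG were sorted as described above and sequenced from SMARTer and Nextera XT libraries, which do not mark strand. The authors trimmed adapters, removed duplicates, mapped with Bowtie2 and obtained gene counts with HTSeq on Ensembl annotation version 90; the submitters' processing notes also name FastQC, cutadapt, DESeq2 and GRCm38. The column headings of the deposited table say TPM, yet the authors' values are CPM, since whole reads were recovered for 100% of the values, within 0.05 reads, in each of the 7 libraries. No value was divided by gene length before deposit.

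Groups were compared in limma 3.58.1 (R 4.3.3, statmod 1.5.0). The fit used log2(CPM + 1), eBayes with trend and robust estimation, and the 17496 genes that reached 1 CPM in 3 or more libraries. Two-sided p-values were adjusted over all these genes (Benjamini-Hochberg). edgeR 4.0.16, DESeq2 1.42.0 and voom on recovered reads, other scalings, no filter, a pseudocount of 0.1 CPM, the replicate number as a block and each library left out in turn were alternatives. The removal of a trend with gene length and levels per longest protein-coding transcript were added after the data were seen. Ratios were compared with exact permutation tests (scipy 1.17.1). Exonic lengths and positions are from GENCODE M21 (GRCm38), which matched 99.7% of the listed genes. The fits were tested on simulated data.

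The members and gene lists were chosen with earlier results of these data known. Besides the members, the text names of each list the genes called (at most 4) and the 2 with the highest mean. It also names the 5 genes most correlated with *Trem2* and with *Tyrobp*. *Cxcr2*, *S100a8*, *S100a9*, *Cd79a*, *Cd79b*, *Ccr2*, *Ccr7*, *Cd209a* and *Src* were named after their values were seen. The summed level of the B cell list is not reported here. No label states that libraries of a group came from separate experiments, so p-values measure the spread between these pools. The floor of 3 reads covers counting error only.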

Additional observations from a re-analysis of the deposited data

How the results depend on the processing

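The rise of *Treml2* kept its direction and its call in 16 of 17 alternative analyses, with log2 fold changes from 1.93 (log2(CPM + 1) scale) to 2.41 (edgeR). The exception was the replicate block (2.27, limma adjusted p = 0.0708), to which lasered library 4 adds nothing because its number has no unlasered partner. With the block, 3 genes were called in all (2 higher and 1 lower), with 0 members and 1 gene of the pathway lists among them. Deviations of libraries with the same number had correlations of -0.18, -0.13 and -0.02. Deviations sum to 0 within a group, so these values are not independent and cannot exclude that the numbers pair the libraries.

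Leaving out 1 library gave between 264 and 1248 genes called (150 to 815 higher, 114 to 433 lower), between 1 and 3 members and between 2 and 12 genes of the pathway lists. No filter gave 385 (212 higher, 173 lower) and 2 list genes, DESeq2 2318 (1177 higher, 1141 lower) and 15 list genes, TMM scaling 1045 higher and 14 list genes, and median-of-ratios scaling 13 list genes. The log2 fold changes without 1 library ran from -0.018 to 0.25 for *Trem2*, from 0.10 to 0.32 for *Tyrobp*, from -0.014 to 0.13 for *Hcst* (-0.038 with the length trend removed), from -0.14 to 0.35 for *Syk*, from 0.35 to 0.89 for *Plcg2* and from 0.12 to 0.57 for *Inpp5d*. Of the other genes named, sign changes occurred for *Fcer1g* (-0.17 to 0.046, and 0.037 and 0.078 with median-of-ratios and TMM scaling), *Vav1* (-0.043 to 0.18), *Sirpa* (-0.029 to 0.27), *Ptprc* (-0.11 to 0.30) and *Cd9* (-0.29 to 0.043).

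With the longest transcript, or the longest protein-coding one, as length, levels in CPM per kilobase were 2482 for *Tyrobp* in lasered libraries, and in unlasered and lasered libraries 72.3 and 74.1 for *Hcst*, 30.02 and 30.2 for *Syk* and 137 and 160 for *Inpp5d*, with *Plcg2* at 41.6 and 58.0, below *Hcst*. *Trem2* reached 823 and 887 with its longest protein-coding transcript. With 3 and 4 pools of unequal depth, a change of *Trem2*, *Tyrobp*, *Hcst* or *Syk* inside the confidence intervals given above was not excluded.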
